A study of Mus musculus with 2 samples.

Results

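The 27 genes described here encode the enzymes that make cholesterol, the proteins that sense it and switch those enzymes on, and a carrier that moves it within the cell. They were taken by symbol from the 31053 genes of the deposited tables, and each symbol matched 1 row. Cells were dissociated from injured mouse spinal cord 5 days after the injury and profiled with the 10x Genomics 3′ gene expression kit. Of the 2 libraries, 1 came from spinal cord treated with an HDAC3 inhibitor (HDAC3i; HDAC3 is a histone deacetylase) and 1 from vehicle-treated cord. The labels name neither the compound, its dose, the strain, age or sex of the mice, nor the count of animals per library, and both groups carry the same injury. With 1 library per group no test between treatments was possible, and the treatment cannot be told apart from any other difference between the 2 libraries.

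Cholesterol is built from acetyl-CoA through mevalonate, isoprenoid units, squalene and a series of sterol ring intermediates. When membrane cholesterol is low, the escort protein Scap carries the SREBP2 precursor from the endoplasmic reticulum to the Golgi apparatus, where it is cut to release a transcription factor that turns on the genes of the pathway. Insig proteins hold Scap back when sterols are plentiful. Oligodendrocytes and Schwann cells, which wrap axons in myelin in the central and the peripheral nervous system, need much cholesterol and are known to make most of it themselves.

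The promoters of 6 of these genes are shown because SREBP2 and its partner factor are known to act on promoters of this pathway. The sterol regulatory element, the site of SREBP, is written here as TCACNCCAC or, more loosely, TCACNNCA, and the CCAAT box is bound by NF-Y, a known partner of SREBP. Hmgcs1 and Mvd are enzymes of the mevalonate stage, and Hsd17b7 and Sc5d enzymes of the sterol ring stage. Insig1 and Insig2 encode the 2 Insig proteins, and their levels followed different cell types. Each line reads 5′ to 3′ on the strand of the gene (RefSeq starts, GRCm38.p6, the same assembly as mm10), begins 250 bases before the annotated start and stops before any annotated transcript. Capitals mark matches on either strand, so that ATTGG is a CCAAT box read from the other strand. No match of the sterol regulatory element overlaps a CCAAT box, and the strict match in Hmgcs1 is also a loose one.
Hmgcs1, chr13:119690101-119690350, + strand: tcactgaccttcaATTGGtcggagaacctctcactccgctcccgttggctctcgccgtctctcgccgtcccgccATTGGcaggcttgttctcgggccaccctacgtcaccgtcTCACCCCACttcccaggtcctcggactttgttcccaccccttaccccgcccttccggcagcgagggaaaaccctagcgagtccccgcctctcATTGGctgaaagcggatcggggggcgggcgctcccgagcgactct
Mvd, chr8:122443423-122443672, - strand: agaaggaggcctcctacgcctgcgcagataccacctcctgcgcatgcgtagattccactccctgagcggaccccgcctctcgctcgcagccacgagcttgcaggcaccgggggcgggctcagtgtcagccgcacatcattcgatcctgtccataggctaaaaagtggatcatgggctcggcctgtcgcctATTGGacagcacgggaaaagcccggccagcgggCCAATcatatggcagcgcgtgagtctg
Sc5d, chr9:42264301-42264550, - strand: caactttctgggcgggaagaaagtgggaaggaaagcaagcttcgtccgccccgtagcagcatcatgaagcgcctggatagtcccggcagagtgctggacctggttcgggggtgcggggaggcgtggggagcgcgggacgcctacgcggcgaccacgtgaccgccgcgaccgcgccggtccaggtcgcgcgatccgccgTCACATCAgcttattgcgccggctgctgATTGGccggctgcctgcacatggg
Hsd17b7, chr1:169969242-169969455, - strand: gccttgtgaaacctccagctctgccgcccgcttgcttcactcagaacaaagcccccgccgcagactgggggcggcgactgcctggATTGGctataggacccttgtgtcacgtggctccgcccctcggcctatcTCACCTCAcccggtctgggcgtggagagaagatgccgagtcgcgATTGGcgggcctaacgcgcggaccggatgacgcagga
Insig1, chr5:28071162-28071362, + strand: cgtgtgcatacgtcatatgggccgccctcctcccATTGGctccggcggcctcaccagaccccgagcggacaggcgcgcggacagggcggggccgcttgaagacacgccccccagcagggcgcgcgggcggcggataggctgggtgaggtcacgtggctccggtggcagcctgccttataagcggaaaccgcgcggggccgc
Insig2, chr1:121332590-121332839, - strand: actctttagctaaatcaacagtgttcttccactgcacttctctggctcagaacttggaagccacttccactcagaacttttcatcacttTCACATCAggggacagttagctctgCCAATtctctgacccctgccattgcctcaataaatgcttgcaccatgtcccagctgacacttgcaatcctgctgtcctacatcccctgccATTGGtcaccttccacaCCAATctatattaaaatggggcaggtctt
In the Hmgcs1 promoter the strict match began at position -137 counted from the start, with CCAAT boxes on both sides of it. RefSeq windows of 300 bases (250 before the start and 50 after) were found for 23 of the 27 genes, and for Fdps, Fdft1, Sqle and Stard4 none was found. A CCAAT box lay in a window of 21 of these 23 genes (91.3%), against 41.1% of the 27025 genes in the table. The strict element TCACNCCAC lay in 1 of 23 (Hmgcs1), against 1.44% of all genes, and the loose element TCACNNCA, which includes the strict one and was added after the strict one had been counted, in 10 of 23 (43.5%), against 15.7%. These shares count a gene if any of its windows matched. By window, a CCAAT box lay in 71.0% of the 31 windows of these genes, against 37.4% of all 32851 windows. The loose element lay in 35.5%, against 13.8%. A match is a run of letters and not a site shown to be bound, and of Insig2, with 3 windows, only 1 is printed.

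After filtering, 2954 cells of the HDAC3i library and 2164 of the vehicle library remained, with median depths of 9701.5 and 10245 unique molecular identifiers (UMIs, counts of captured RNA molecules) per cell. The libraries had 10 barcode sequences in common. Clusters were found without the 27 genes and named from marker genes. This gave 14 classes of at least 10 cells in each library, each called "-like" because no annotation of single cells was used, and 5 of 29 clusters stayed unnamed. None of the 12 oligodendrocyte markers was at 0 in its class, and of the 11 Schwann markers only Mpzl2 was. Levels are given as CPM, the usual scaling of a gene's UMIs, summed over the cells of a class in 1 library, to a fixed total of the UMIs of that class. Because each molecule is tagged once at its 3′ end, CPM does not grow with transcript length and is compared between genes below. Intervals are 95% intervals that cover counting error only, not differences between animals.

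**Figure D1:**
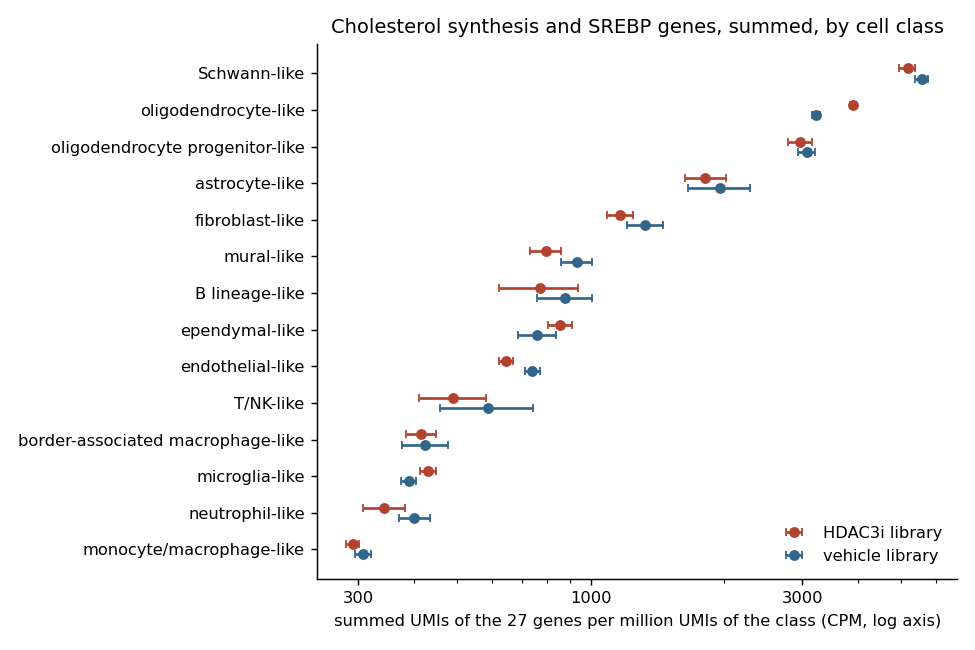
Summed level of the 27 genes in each of 14 cell classes (CPM on a log axis), with 1 point per library and bars for the 95% counting interval. Schwann-like, oligodendrocyte-like and oligodendrocyte progenitor-like cells lie on the right, from 2964 to 5569 CPM, and the 4 myeloid classes on the left, from 292 to 432 CPM.

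The summed genes differed widely between cell types, and myelin-forming cells were at the top. Schwann-like cells had 5172 CPM in the HDAC3i library and 5569 CPM in the vehicle library. Oligodendrocyte-like cells had 3896 and 3218 CPM, oligodendrocyte progenitor-like cells 2964 and 3066 CPM, astrocyte-like cells 1814 and 1957 CPM and fibroblast-like cells 1163 and 1327 CPM. These 5 classes held the same order in both libraries, although the intervals of oligodendrocyte-like (3158 to 3279) and progenitor-like cells (2935 to 3202) overlapped in the vehicle library. Ependymal-like (855 and 759 CPM), mural-like (793 and 931 CPM), B lineage-like (769 and 876 CPM) and endothelial-like cells (645 and 740 CPM) followed in an order that differed between the libraries. T/NK-like cells had 491 and 586 CPM. Microglia-like cells had 432 and 390 CPM, border-associated macrophage-like cells 415 and 425 CPM, neutrophil-like cells 343 and 401 CPM, and monocyte/macrophage-like cells were lowest at 292 and 307 CPM. The astrocyte-like value rests on 30 and 15 cells, the T/NK-like on 51 and 14, and the B lineage-like on 23 and 39.

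Depth was measured beside this order. Cells were thinned to 2000 UMIs, and those that could not be were left out (21 and 16 Schwann-like and 10 and 13 oligodendrocyte-like cells; HDAC3i, then vehicle). A thinned cell held on average 11.5 and 10.7 UMIs of the 27 genes in the Schwann-like class and 7.01 and 5.97 in the oligodendrocyte-like class. It held 1.30 and 1.43 in the endothelial-like class, 0.906 and 0.939 in the microglia-like class and 0.582 and 0.658 in the monocyte/macrophage-like class. Progenitor-like cells (26 and 39 thinned) held 5.88 and 5.62 UMIs at this depth, close to oligodendrocyte-like cells in the vehicle library. Astrocyte-like cells held 3.92 and 4.38, on only 26 and 8 thinned cells. The immune and endothelial-like cells given here were well below these glial classes at equal depth.

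To compare myelinating with other cells, the oligodendrocyte-like and Schwann-like levels were averaged and set against the mean of 6 immune classes and of 2 vascular classes (endothelial-like and mural-like). The summed level was 9.92-fold and 8.83-fold above the immune mean in the HDAC3i and vehicle libraries. It was 6.31-fold and 5.26-fold above the vascular mean. No counting interval is given for these ratios of class means, in which small classes weigh as much as large ones. In the immune mean, T/NK-like cells rest on 133 and 70 UMIs of the 27 genes and B lineage-like cells on 97 and 201. Of the 27 genes, 23 were at least 2-fold above the immune mean in both libraries, where 29.9% of the 15665 measured genes were, and none was at least 2-fold below it (20.2% of all). The 27 genes had median ratios of 6.93 and 7.97 to the immune mean, against 1.37 and 1.32 over all measured genes. Against the vascular mean 19 were at least 2-fold higher (15.8% of all) and 1, Insig2, was at least 2-fold lower (19.8% of all). Taken alone, oligodendrocyte-like cells had 24 genes at least 2-fold above the immune mean (28.6% of all) and 21 above the vascular mean (16% of all), and Schwann-like cells 22 (21% of all) and 18 (9.6% of all). The 4 genes not 2-fold above the immune mean in both libraries were Acly, Ggps1, Ebp and Insig2.

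**Figure D2:**
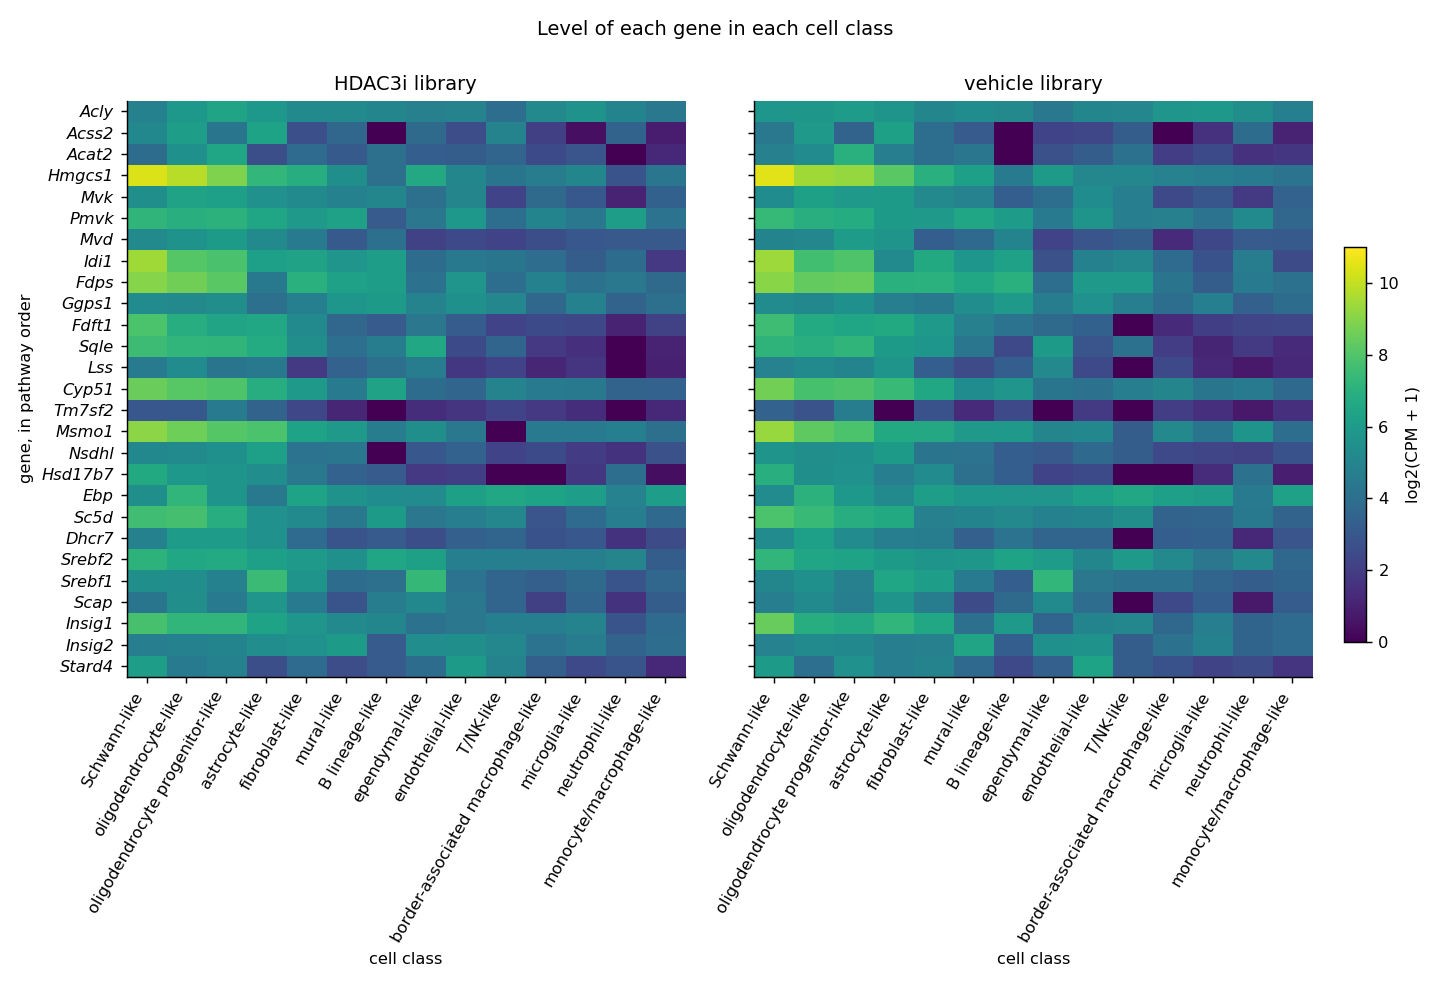
Level of each of the 27 genes, in pathway order, in each of 14 cell classes, as log2(CPM + 1), with 1 panel per library. Hmgcs1, Idi1, Fdps, Cyp51 and Msmo1 form the bright rows of the 3 leftmost classes, while Ebp and Ggps1 vary less across the columns.

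Step by step, the supply of acetyl-CoA units came first and showed the most mixed pattern. Acly, which makes cytosolic acetyl-CoA from citrate, had 56.7 and 54.8 CPM in oligodendrocyte-like cells and 49.8 and 58.1 CPM in the microglia-like class. The monocyte/macrophage-like level was 20.2 and 25.9 CPM. In Schwann-like cells Acly had 27.5 and 53.3 CPM, and the oligodendrocyte-like level was 2.06 times that in the HDAC3i library (1.16 to 4.04) and 1.03 times in the vehicle library (0.703 to 1.55). Acss2, which makes acetyl-CoA from acetate, was highest in astrocyte-like cells: 82.5 and 75.8 CPM in astrocyte-like and 68.2 and 58.6 CPM in oligodendrocyte-like cells, but 0.379 and 1.96 CPM in microglia-like cells. The astrocyte-like levels of Acss2 rest on 16 and 6 UMIs, and their intervals held the oligodendrocyte-like levels. Acat2, which joins 2 acetyl-CoA units in the cytosol, was highest in progenitor-like cells at 87.6 and 124 CPM, ahead of 44.4 and 38.4 CPM in oligodendrocyte-like cells. All 3 supply genes were highest outside the Schwann-like class in both libraries.

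In the mevalonate stage the contrast between cell types was steepest. Hmgcs1 (ENSMUSG00000093930, chromosome 13, 119690379 to 119708260, + strand), the cytosolic HMG-CoA synthase, gave 16.2% of all UMIs of the 27 genes. It had 1371 and 1443 CPM in Schwann-like cells, 913 and 696 CPM in oligodendrocyte-like cells, and 465 and 611 CPM in progenitor-like cells. In microglia-like cells it had 32.2 and 25.2 CPM and in endothelial-like cells 32.3 and 33.3 CPM, so that the myelinating mean was 59.4- and 43.5-fold above the immune mean. Idi1, which isomerises the 5-carbon isoprenoid unit, had the lowest oligodendrocyte-like to Schwann-like ratio of the enzymes, with 685 and 668 CPM there and 271 and 200 CPM in oligodendrocyte-like cells. The kinases Mvk and Pmvk and the decarboxylase Mvd, which act between these 2 enzymes, were lower and flatter: in oligodendrocyte-like cells Mvk had 78.7 and 74.7 CPM, Pmvk 119 and 117 CPM and Mvd 49.5 and 33.0 CPM. Pmvk was 4.92- and 4.63-fold above the immune mean and Mvk 5.53- and 5.97-fold. Neutrophil-like cells had the highest Pmvk level of the 6 immune classes in the HDAC3i library, with 71.2 CPM, but in the vehicle library their 37.7 CPM lay below the 65.4 CPM of B lineage-like cells, which rests on 15 UMIs.

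The next stage joins isoprenoid units into farnesyl diphosphate and then squalene. Fdps, the farnesyl diphosphate synthase, had 507 and 528 CPM in Schwann-like and 391 and 322 CPM in oligodendrocyte-like cells, against 16.7 and 8.45 CPM in microglia-like cells. Fdft1, the squalene synthase that commits carbon to sterols, had 236 and 193 CPM in Schwann-like cells and 115 and 106 CPM in oligodendrocyte-like cells, but 4.17 and 3.17 CPM in microglia-like and 8.30 and 9.68 CPM in endothelial-like cells. Sqle, the squalene epoxidase, followed Fdft1 with 183 and 143 CPM in Schwann-like and 149 and 117 CPM in oligodendrocyte-like cells. It was also high in ependymal-like cells, at 94.1 and 62.8 CPM. Ggps1, which turns farnesyl diphosphate toward geranylgeranyl lipids that anchor proteins and leaves the sterol route, did not share the pattern: it had 34.7 and 34.2 CPM in oligodendrocyte-like cells, 39.0 and 38.3 CPM in Schwann-like cells, 45.0 and 46.0 CPM in endothelial-like cells and 27.9 and 26.1 CPM in microglia-like cells. At the branch point, therefore, the gene of the sterol arm (Fdft1) was 42.6- and 29.9-fold above the immune mean and the gene of the other arm (Ggps1) 1.36- and 1.45-fold.

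The 9 enzymes measured here that act on the sterol ring shared the pattern, with 1 exception. Msmo1, which removes methyl groups, had 541 and 640 CPM in Schwann-like and 377 and 308 CPM in oligodendrocyte-like cells, and Cyp51, the lanosterol demethylase, 353 and 407 CPM and 278 and 220 CPM. Sc5d, a desaturase, had 199 and 238 CPM in Schwann-like cells and 212 and 170 CPM in oligodendrocyte-like cells, near even in the HDAC3i library and lower in oligodendrocyte-like cells in the vehicle library (0.714-fold; 0.594 to 0.864). Hsd17b7, a ketosteroid reductase, had 101 and 123 CPM in Schwann-like and 57.5 and 44.0 CPM in oligodendrocyte-like cells, and 0 UMIs in border-associated macrophage-like cells, which allows up to 1.95 and 4.42 CPM (3 UMIs). Lss, which closes the ring, Nsdhl, a dehydrogenase, and Dhcr7, a final reductase, ranged from 22.9 to 72.6 CPM over the oligodendrocyte-like and Schwann-like classes. Tm7sf2, a ring reductase, was the scarcest of the 27 genes, with 0.302% of their UMIs, and peaked in progenitor-like cells at 21.2 and 23.9 CPM.

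Ebp, a sterol isomerase, broke with its neighbours in the chain. It had 151 and 132 CPM in oligodendrocyte-like cells and 43.6 and 38.3 CPM in Schwann-like cells, the reverse of the order of Msmo1 and Cyp51. Monocyte/macrophage-like cells had 71.0 and 77.4 CPM and microglia-like cells 67.8 and 64.3 CPM, so Ebp was the most counted of the 27 genes in both. The next in monocyte/macrophage-like cells, Acly and Hmgcs1, had 20.2 and 25.9 CPM and 19.2 and 17.1 CPM.

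By the ratio of the myelinating to the immune mean, the gene of SREBP2 differed less than most enzymes of the pathway. Srebf2, which encodes SREBP2, had 138 and 148 CPM in Schwann-like, 94.9 and 86.6 CPM in oligodendrocyte-like, 26.2 and 19.6 CPM in microglia-like cells, while the monocyte/macrophage-like class had 8.42 and 12.0 CPM. Its myelinating mean was 3.41- and 2.89-fold above the immune mean, while 8 enzymes (Hmgcs1, Idi1, Fdps, Fdft1, Sqle, Cyp51, Msmo1 and Hsd17b7) were at least 10.2-fold above it in both libraries. B lineage-like cells had 87.2 and 82.8 CPM of Srebf2, on 11 and 19 UMIs. They weigh as much in that immune mean as the larger classes. Srebf1, whose SREBP1 products mainly drive fatty acid genes, peaked elsewhere: astrocyte-like cells had 180 and 88.4 CPM and ependymal-like cells 161 and 153 CPM, against 41.2 and 44.9 CPM in oligodendrocyte-like cells. Scap had 42.0 and 36.3 CPM in oligodendrocyte-like and 11.2 and 8.90 CPM in microglia-like cells. Among the 2 Insig genes, Insig1, itself a known SREBP target, followed the enzymes with 225 and 348 CPM in Schwann-like and 152 and 115 CPM in oligodendrocyte-like cells. Insig2 was highest in mural-like cells (63.3 and 84.8 CPM) and had 27.3 and 36.9 CPM in oligodendrocyte-like cells. Its mean over both myelinating classes was 0.493- and 0.489-fold of the vascular mean, and the oligodendrocyte-like level alone 0.513- and 0.553-fold. Stard4, a cytosolic sterol carrier, had 62.7 and 82.8 CPM in endothelial-like cells, close to 68.8 and 63.3 CPM in Schwann-like cells and above 22.0 and 15.2 CPM in oligodendrocyte-like cells.

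The highest of the 14 classes was the same in both libraries for 22 of the 27 genes. It was the Schwann-like class for 10 (Hmgcs1, Pmvk, Idi1, Fdps, Fdft1, Cyp51, Msmo1, Hsd17b7, Srebf2 and Insig1), the progenitor-like class for 4 (Acly, Acat2, Mvd and Tm7sf2), the oligodendrocyte-like class for 3 (Mvk, Ebp and Dhcr7) and the astrocyte-like class for 3 (Acss2, Nsdhl and Scap). Ggps1 was highest in B lineage-like and Insig2 in mural-like cells. The astrocyte-like levels of Acss2, Nsdhl and Scap rest on 4 to 16 UMIs per library, and the B lineage-like levels of Ggps1 on 8 and 14. The intervals of these levels overlapped those of other classes in both libraries, so their place at the top is within counting error. The highest class was not counted over all measured genes, so these counts have no share to be read against. The 2 myelinating types differed in some of these genes. Only Ebp was at least 2-fold higher in oligodendrocyte-like than in Schwann-like cells in both libraries, where 17.1% of the 15665 measured genes were. Only Idi1 and Stard4 were at least 2-fold lower in both, where 13.3% of all measured genes were. Oligodendrocyte-like cells had 3.47-fold (2.21 to 5.80) and 3.44-fold (2.26 to 5.48) the Schwann-like level of Ebp, and 1.98-fold (1.19 to 3.59) and 2.93-fold (1.64 to 5.77) that of Acss2. For Idi1 they had 0.396-fold (0.349 to 0.450) and 0.299-fold (0.264 to 0.340), and for Stard4 0.320-fold (0.212 to 0.497) and 0.240-fold (0.154 to 0.375). The class median depths, 10920 and 14758 UMIs in oligodendrocyte-like but 2857 and 3269 UMIs in Schwann-like cells, differed alongside, and their part in these ratios was not tested. A small unnamed cluster of 31 and 48 cells, led by Scn7a, had 3515 and 2948 CPM of the 27 genes.

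Within classes, clusters that were found without the 27 genes also differed in them. The Klk6-rich cluster of oligodendrocyte-like cells (68 and 37 cells; Klk6 is a secreted protease of some mature oligodendrocytes) had 5303 and 4888 CPM, against 3329 and 2568 CPM in the largest oligodendrocyte-like cluster (305 and 158 cells). That is 1.59-fold (1.55 to 1.64) and 1.90-fold (1.83 to 1.98). A smaller and shallower cluster, also led by Klk6 (21 and 14 cells, median depth 2590 and 1275.5 UMIs), had 2346 and 2641 CPM. Of the 27 genes, 24 were higher in the larger Klk6 cluster in both libraries, a count not made over all genes. Their median log2 ratios were 0.70 and 0.71, against 0.10 and 0.04 over all measured genes. At least 1.5-fold higher in both libraries were 13, where 11.5% of 10232 genes were. Hmgcs1 had 1343 and 1188 CPM against 737 and 499 CPM, and Sqle 242 and 236 CPM against 111 and 70.9 CPM. Srebf1 ran the other way and was the only one at least 1.5-fold lower in both libraries (8.57% of genes), with 20.2 and 20.2 CPM against 51.3 and 55.1 CPM. Insig1 was also lower, with 130 and 88.2 CPM against 166 and 126 CPM. Median depth was higher in the Klk6 cluster, at 18328.5 and 22598 UMIs per cell against 10404 and 14469.5, and its part was not tested.

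Among progenitor-like cells, the cluster led by Gpr17, a receptor of progenitors that have begun to differentiate, had 4001 and 3730 CPM (10 and 29 cells). The cluster led by Cspg5, Ptprz1 and C1ql1 had 2076 and 2071 CPM (16 and 20 cells). The ratio was 1.93 (1.69 to 2.20) and 1.80 (1.63 to 1.99), and 13 of 26 measured genes were at least 1.5-fold higher in the Gpr17 cluster in both libraries, against 9.06% of all measured genes. Cyp51 had 399 and 338 CPM against 123 and 101 CPM, and Hmgcs1 694 and 795 CPM against 269 and 335 CPM. Srebf1 and Insig2 were at least 1.5-fold lower (17.7% of genes), with intervals that included 1. Median depth was 16173.5 and 2427 UMIs in the Gpr17 cluster and 9797.5 and 12392.5 UMIs in the other, and its part was not tested.

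**Figure D3:**
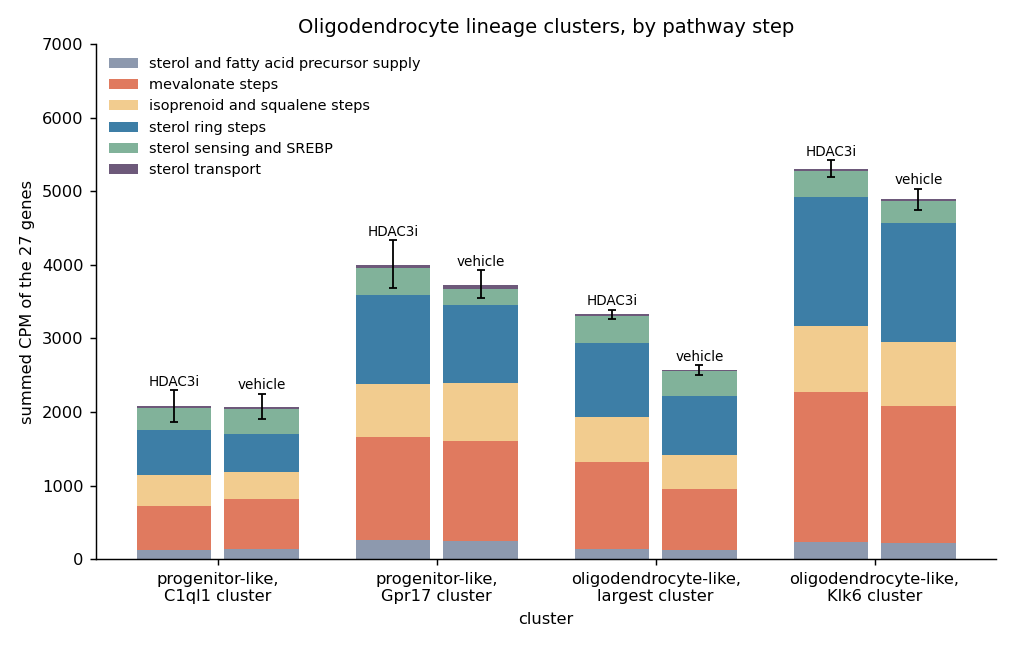
Summed CPM of the 27 genes in 4 clusters of the oligodendrocyte lineage, stacked by pathway step, with 1 bar per library and the 95% counting interval of the total. The Gpr17 cluster stands above the C1ql1 cluster and the Klk6 cluster above the largest oligodendrocyte-like cluster in both libraries.

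Among monocyte/macrophage-like cells, the cluster led by the monocyte genes Plac8, Chil3 and Ly6c2 had 572 and 630 CPM (25 and 39 cells), against 286 and 282 CPM in the far larger cluster led by Spp1 and Gpnmb (485 and 239 cells). The ratio was 2.0 (1.68 to 2.36) and 2.24 (1.99 to 2.51). Median log2 ratios were 0.94 and 0.73, against 0.27 and 0.22 over all measured genes. Of 25 measured genes 12 were at least 1.5-fold higher in both libraries, against 22.8% of all measured genes, and 1, Dhcr7, at least 1.5-fold lower (13.6%), with intervals that included 1 in both libraries. Fdps had 58.7 and 97.6 CPM against 12.0 and 10.3 CPM, and Srebf2 39.2 and 39.7 CPM against 7.78 and 9.87 CPM. Hmgcs1 did not differ in this way, with 27.4 and 16.3 CPM against 19.1 and 17.2 CPM. Median depth was lower in the Plac8-led cluster, at 9488 and 13772 UMIs per cell against 24181 and 28156, and its part was not tested.

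Of the 9 classes compared between the libraries, the summed ratio farthest from 1 was in oligodendrocyte-like cells (394 and 209 cells), where the HDAC3i library had 1.21 times the vehicle level (1.18 to 1.24). Of the 27 genes 23 were higher, where 52.7% of the 10291 measured genes were. Their median log2 ratio was 0.21, against 0.02 over all measured genes. Hmgcs1 had 913 CPM in the HDAC3i and 696 CPM in the vehicle library, a ratio of 1.31 (1.25 to 1.38). Fdps had 391 and 322 CPM (1.21; 1.12 to 1.31) and Msmo1 377 and 308 CPM (1.22; 1.13 to 1.32). Cyp51 had 278 and 220 CPM (1.26; 1.15 to 1.38), Idi1 271 and 200 CPM (1.36; 1.24 to 1.49) and Sc5d 212 and 170 CPM (1.25; 1.12 to 1.38).

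No gene reached 1.5-fold in either direction in these cells, where 5.33% of genes were at least 1.5-fold higher and 4.03% at least 1.5-fold lower. In all, 12 intervals lay above 1, and that of Insig2 lay below (0.739; 0.575 to 0.950). The share of all measured genes with such intervals was not counted, so the 12 cannot be set against it. By stage, the ratio was 1.28 (1.23 to 1.33) for the mevalonate enzymes, 1.19 (1.13 to 1.26) for the isoprenoid and squalene enzymes, 1.19 (1.14 to 1.24) for the ring enzymes and 1.12 (1.04 to 1.21) for the sensors and SREBP genes. Srebf2 itself had 94.9 and 86.6 CPM (1.10; 0.945 to 1.27). The ratio was 1.30 (1.26 to 1.34) in the largest cluster and 1.08 (1.05 to 1.13) in the larger Klk6 cluster. In the smaller Klk6 cluster it was 0.888 (0.666 to 1.20), with 2 of 5 measured genes higher. Markers of the class itself summed to 74370 and 79188 CPM. Of the marker lists of other cell types, 8 erythroid markers summed to 3759 and 4076 CPM, 11 Schwann markers to 2002 and 2131 CPM and 11 progenitor markers to 1047 and 1154 CPM. The 12 monocyte/macrophage markers summed to 512 and 202 CPM, with 1 and 3 of them at 0, and the part of these cells in the ratio was not tested. Median depth was 10920 and 14758 UMIs, and at a thinned depth the ratio was 1.17 (1.10 to 1.26).

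**Figure D4:**
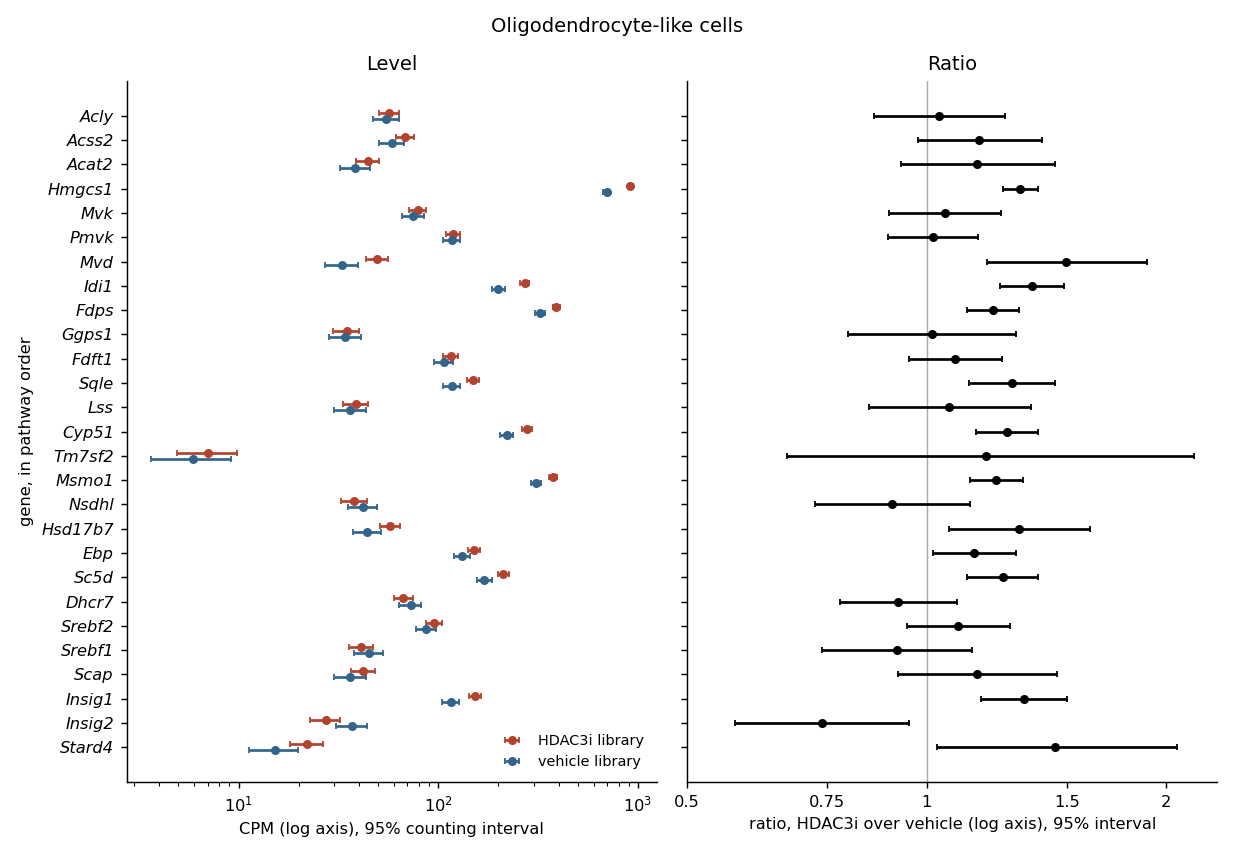
Level of each of the 27 genes in oligodendrocyte-like cells of both libraries (CPM on a log axis, left) and the ratio of HDAC3i to vehicle (log axis, right), with 95% counting intervals. Ratios lie above 1 for 23 genes, and the interval of Insig2 lies wholly below 1.

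In microglia-like cells the HDAC3i library had 1.11 times the vehicle level (1.05 to 1.17), with 20 of 25 measured genes higher, where 46.8% of 10361 genes were, and a median log2 ratio of 0.23 against -0.02 over all measured genes. At a thinned depth the summed ratio was 0.965 (0.840 to 1.11), an interval that includes 1, and with each cell weighted alike 1.05. Of 25 genes 3 were at least 1.5-fold higher (3.82% of all) and none at least 1.5-fold lower (4.79%). Fdps, with 16.7 and 8.45 CPM (1.97; 1.40 to 2.81), was the one whose interval excluded 1, and with each cell weighted alike its log2 ratio was 0.30 rather than 0.98. Hmgcs1 had 32.2 and 25.2 CPM (1.28; 1.03 to 1.59), and Srebf2 26.2 and 19.6 CPM (1.33; 1.04 to 1.71). Other well-counted genes had intervals that included 1: Ebp had 67.8 and 64.3 CPM, Insig1 29.4 and 25.4 CPM and Ggps1 27.9 and 26.1 CPM. Acly, with 49.8 and 58.1 CPM (0.858; 0.731 to 1.01), and Insig2, with 24.1 and 27.8 CPM (0.867; 0.686 to 1.09), were lower in the HDAC3i library. The cluster with Ccl4, Il1a and Il1b among its leading genes had 469 and 413 CPM (1.14; 1.07 to 1.21) and the Spp1-led cluster 330 and 324 CPM (1.02; 0.899 to 1.15), and the intervals overlapped.

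In ependymal-like cells, ciliated cells that line the central canal, the ratio was 1.13 (1.0 to 1.27), with 12 of 19 measured genes higher (51.2% of all measured genes). Hmgcs1 had 97.5 and 62.8 CPM (1.55; 1.05 to 2.35), and Sqle 94.1 and 62.8 CPM (1.5; 1.01 to 2.27). Srebf1, their most counted gene, had 161 and 153 CPM (1.05; 0.809 to 1.38). Srebf2 had 75.9 and 64.6 CPM, Ebp 38.8 and 51.7 CPM and Insig2 40.6 and 44.3 CPM. Of 19 genes 2 were at least 1.5-fold higher (9.51% of all) and 1 at least 1.5-fold lower (8.19%).

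Endothelial-like cells went the other way, with a ratio of 0.872 (0.827 to 0.918) and 4 of 27 genes higher, where 50.9% of 10643 genes were. Their median log2 ratio was -0.28, against 0.01 over all measured genes. Msmo1 had 20.1 and 33.6 CPM (0.598; 0.451 to 0.789), although at a thinned depth its log2 ratio was -0.10 rather than -0.74. Insig1 had 19.7 and 30.1 CPM (0.652; 0.489 to 0.869), and the carrier Stard4 62.7 and 82.8 CPM (0.757; 0.642 to 0.891). Fdps had 51.8 and 60 CPM, Insig2 43.0 and 48.7 CPM, Ebp 75.6 and 73.2 CPM, Pmvk 57.0 and 51.4 CPM and Ggps1 45.0 and 46.0 CPM. At least 1.5-fold lower were 3 genes (4.28% of all) and none at least 1.5-fold higher (4.25%). The ratio was 0.898 (0.838 to 0.961) and 0.847 (0.775 to 0.925) in the 2 large endothelial-like clusters, but in the larger of them 9 of 26 genes were higher.

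Mural-like cells, which wrap vessels, had a ratio of 0.852 (0.760 to 0.955) with 4 of 18 measured genes higher (49.5% of all measured genes). In this class 10 fibroblast markers summed to 338 and 1027 CPM, with 4 and 3 at 0, and 10 neutrophil markers to 139 and 892 CPM, with 3 and 1 at 0. Their part in the ratio was not tested. Hmgcs1 had 43.1 and 73.8 CPM (0.584; 0.364 to 0.927), and Insig1 36.7 and 15.7 CPM (2.34; 1.11 to 5.38) on 29 and 10 UMIs. Fdps had 78.6 and 95.8 CPM, Pmvk 78.6 and 89.5 CPM, Insig2 63.3 and 84.8 CPM, Msmo1 60.8 and 59.7 CPM and Idi1 51.9 and 53.4 CPM. A single gene was at least 1.5-fold higher (8.58% of all) and 4 at least 1.5-fold lower (9.56%).

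In Schwann-like cells (128 and 169) the ratio was 0.929 (0.880 to 0.980), with 10 of 26 measured genes higher (53% of all measured genes), but 1.05 with each cell weighted alike and 1.07 (0.993 to 1.15) at a thinned depth. Monocyte/macrophage markers summed to 2898 and 1713 CPM in this class, with 5 of 12 at 0 in both libraries, and erythroid markers to 133 and 1286 CPM. Their part in the ratio was not tested. Hmgcs1 had 1371 and 1443 CPM (0.950; 0.854 to 1.06), Idi1 685 and 668 CPM (1.03; 0.880 to 1.19), Fdps 507 and 528 CPM (0.959; 0.804 to 1.14) and Cyp51 353 and 407 CPM (0.868; 0.705 to 1.07). Insig1 had 225 and 348 CPM (0.645; 0.502 to 0.824), with a log2 ratio of -0.05 at a thinned depth rather than -0.63. Msmo1 had 541 and 640 CPM (0.845; 0.716 to 0.997). A single gene was at least 1.5-fold higher (10.7% of all) and 3 at least 1.5-fold lower (10.1%).

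Neutrophil-like cells had a ratio of 0.855 (0.746 to 0.980), and 4 of 15 measured genes were higher (59% of all measured genes). Markers of other cells were higher in the vehicle library in this class: erythroid markers summed to 38.7 and 2007 CPM, Schwann markers to 10.5 and 117 CPM and fibroblast markers to 22.0 and 163 CPM, with their part in the ratio not tested. Hmgcs1 had 6.28 and 21.8 CPM (0.288; 0.0986 to 0.696) on 6 and 33 UMIs, Cyp51 10.5 and 22.5 CPM (0.466; 0.205 to 0.964) and Msmo1 26.2 and 50.3 CPM (0.521; 0.317 to 0.828). Pmvk was opposite, with 71.2 and 37.7 CPM (1.89; 1.31 to 2.73). Acly had 30.4 and 42.3 CPM, Srebf2 31.4 and 35.7 CPM, Ebp 28.3 and 23.1 CPM and Sc5d 25.1 and 20.5 CPM. A single gene was at least 1.5-fold higher (13.3% of all) and 5 at least 1.5-fold lower (7.75%). The cluster led by the granule genes Ngp and Camp held 65 of these cells in the HDAC3i library and 110 in the vehicle library, and the cluster led by Retnlg 102 and 91. The summed level was 385 and 430 CPM in the first and 251 and 316 CPM in the second, so both clusters were lower in the HDAC3i library with intervals that included 1.

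Monocyte/macrophage-like cells had a ratio of 0.950 (0.901 to 1.0), and 8 of 25 measured genes were higher (48% of all measured genes). In the Spp1-led cluster alone the ratio was 1.01 (0.959 to 1.07) and 13 of 25 were higher. The cluster led by Plac8, high in these genes, held 25 cells of the HDAC3i and 39 of the vehicle library. Pmvk had 17.4 and 11.2 CPM (1.55; 1.20 to 2.01) and Idi1 2.57 and 4.84 CPM (0.530; 0.320 to 0.875). Ebp had 71.0 and 77.4 CPM, Acly 20.2 and 25.9 CPM, Hmgcs1 19.2 and 17.1 CPM, Msmo1 15.8 and 14.8 CPM and Ggps1 15.6 and 13.7 CPM. A single gene was at least 1.5-fold higher (4.36% of all) and 3 at least 1.5-fold lower (4.99%).

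Border-associated macrophage-like cells, the macrophages of the meninges and vessels, had the fewest UMIs of the 27 genes among the 9 classes, and their ratio of 0.978 (0.849 to 1.13) did not depart from 1 beyond counting error. Of 14 measured genes 7 were higher (52.4% of all measured genes). Insig1 had 25.9 and 11.8 CPM (2.20; 1.02 to 5.44) on 40 and 8 UMIs, and was near even (log2 ratio -0.08) with classes drawn from each cell's own markers. Ebp had 83.0 and 72.3 CPM, Acly 35.7 and 51.6 CPM, Pmvk 30.5 and 26.5 CPM, Srebf2 25.3 and 35.4 CPM, Cyp51 22.7 and 31.0 CPM and Msmo1 22.1 and 35.4 CPM. At least 1.5-fold higher were 3 genes (12.3% of all) and 2 at least 1.5-fold lower (9.98%).

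**Figure D5:**
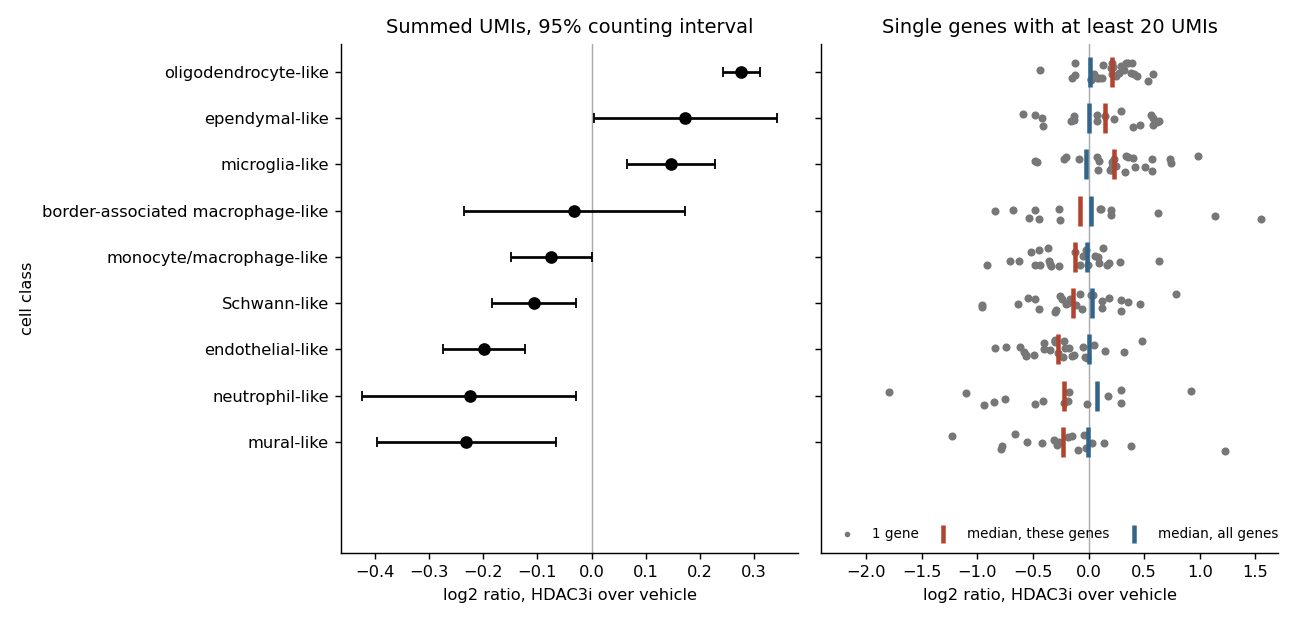
Left, log2 ratio of HDAC3i to vehicle for the summed UMIs of the 27 genes in 9 cell classes, with 95% counting intervals. Right, the same ratio for each gene with at least 20 UMIs (grey), their median (red) and the median of all measured genes (blue). The red mark lies right of the blue one in oligodendrocyte-like, ependymal-like and microglia-like cells and left of it in the other 6 classes.

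Followed across the 9 classes, single genes differed in direction. Dhcr7 was lower in the HDAC3i library in 5 of 5 classes in which it was measured, but each of these intervals included 1. Insig2, Acly and Cyp51 were lower in 7 of 9, with 1 interval below 1 each, and Cyp51 also had 1 above. Ggps1 was higher in 7 of 9, with intervals that all included 1. Ebp and Pmvk were higher in 6 of 9, with 1 and 2 intervals above 1. The share of all measured genes with such runs was not counted. Hmgcs1 was higher in 4 of 9, and in 5 of its 9 classes the interval excluded 1 (3 above and 2 below). All 9 ratios share the same 2 libraries, so these counts are not independent of each other.

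Genes of neighbouring pathways gave the setting. In the fatty acid branch driven by SREBP1, 9 of 12 genes were at least 2-fold above the immune mean in myelinating cells of both libraries and 1 at least 2-fold below, where 29.9% and 20.2% of all measured genes were. The counts that follow are to be read against these shares. Scd2, a stearoyl-CoA desaturase, had 2109.9 and 2088 CPM in oligodendrocyte-like and 951 and 935 CPM in Schwann-like cells, but 21.6 and 24.9 CPM in microglia-like cells. Of 10 genes for other myelin lipids, 8 were at least 2-fold higher, led by Ugt8a, the galactosyltransferase of myelin galactolipids. Of 10 genes for SREBP processing and turnover only 1 was, and 2 were lower. Of 9 measured genes of the list of LXR receptors, their targets and sterol exporters, none was higher and 3 were lower. Some genes that store and export cholesterol had the opposite distribution: Apoe, the lipoprotein carrier, had 63599 and 72837 CPM in the monocyte/macrophage-like class and 1692 and 1841 CPM in oligodendrocyte-like cells, and Soat1, which esterifies cholesterol for storage, 338 and 349 CPM against 15.3 and 11.3 CPM. Of 15 genes for sterol trafficking, storage and oxysterols, 4 were at least 2-fold higher and 5 lower in myelinating cells. Of 11 genes for non-sterol isoprenoid use 4 were higher and none lower, among them Fnta, a prenyltransferase subunit, with 241 and 248 CPM in oligodendrocyte-like and 35.4 and 28.7 CPM in microglia-like cells.

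Between the libraries these lists were described in oligodendrocyte-like cells by their medians, and no difference between lists was tested. The median log2 ratio was -0.12 for the 10 myelin lipid genes (1 higher and 9 lower), -0.09 for SREBP processing (3 of 10 higher), 0.06 for the SREBP1 fatty acid branch (6 of 10 measured higher) and 0.12 for trafficking, storage and oxysterols (9 of 13 higher). It was -0.02 for LXR and efflux (4 of 8 higher) and -0.01 for non-sterol isoprenoid use (5 of 11 higher), against 0.21 for the 27 genes and 0.02 for all measured genes. Among them Fads1, a fatty acid desaturase, had 12.5 and 7.44 CPM (1.68; 1.04 to 2.79) and Mylip, a ligase that sterol-activated LXR induces, 5.86 and 2.68 CPM (2.19; 1.01 to 5.25). In microglia-like cells the same lists had medians between -0.15 and 0.03, against 0.23 for the 27 genes. Pggt1b, a subunit of an enzyme that adds geranylgeranyl groups to proteins, had 11.7 and 7.55 CPM there (1.56; 1.06 to 2.31).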

How the data were processed

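Gene UMI counts per cell barcode were deposited by the authors, 1 filtered matrix for each library; per the file headers they came from Cell Ranger 3.0.2 on mm10, and the submitters' processing notes also name Seurat. The gene symbols, identifiers and barcodes are other columns the authors deposited. Cells had to show 500 or more genes, 1000 or more UMIs and a mitochondrial share of 15% or less; predicted doublets were removed (21 of HDAC3i, 6 of vehicle). Cells were clustered with scanpy 1.11.5 and leidenalg 0.10.2 (2000 variable genes, 30 principal components, 20 neighbours, resolution 1) without 95 genes, the 27 members and related lists, and clusters were named from marker lists. The naming thresholds come from an earlier analysis of these data, and leaving out clusters mixed with erythroid genes was decided after seeing the clusters. The members and lists were likewise chosen with earlier results of these data known.

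UMIs were summed per class and library and divided by the class total. Intervals are exact Poisson for levels and exact conditional binomial for ratios (scipy 1.17.1), at 95%. Each group is 1 library, so no test was made. A gene was measured in a class if the libraries together held 20 or more of its UMIs, and classes were compared with at least 50 cells in each. All members are described by step; in each class the 6 with most UMIs and those past 1.5-fold with an interval excluding 1 are given, and of related lists the 3 with most UMIs or those past that threshold. The code was tested on simulated data. Alternatives changed the cell filter, doublets, classes, cell weighting, depth, total and gene minimum. A measure of free RNA from transcripts of other cell types is not reported here.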

Additional observations from a re-analysis of the deposited data

Results flagged for a closer look

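The ratio of HDAC3i to vehicle lay on opposite sides of 1 in different cell classes, with 95% counting intervals that excluded 1 on both sides. The difference between classes was not tested. For the summed UMIs of the 27 genes it was 1.21 in oligodendrocyte-like, 1.13 in ependymal-like and 1.11 in microglia-like cells, but 0.929 in Schwann-like, 0.872 in endothelial-like, 0.855 in neutrophil-like and 0.852 in mural-like cells. The 2 myelin-forming types are on opposite sides in this comparison, although the Schwann-like ratio was above 1 with each cell weighted alike. The microglia-like ratio was 0.965 (0.840 to 1.11) at a thinned depth.

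Hmgcs1, the HMG-CoA synthase, had a ratio of 1.55 in ependymal-like cells, against 0.584 in mural-like and 0.288 in neutrophil-like cells. Insig1, the gene of a protein that holds Scap back, had 2.34 in mural-like and 2.20 in border-associated macrophage-like cells, against 0.645 in Schwann-like and 0.652 in endothelial-like cells. Of these, the border-associated macrophage-like log2 ratio was -0.075 with classes from own markers, and the Schwann-like one -0.05 at a thinned depth. In mural-like cells Hmgcs1 was lower and Insig1 higher in the HDAC3i library.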

How the results depend on the processing

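No paired analysis was possible because each group holds 1 library. The summed ratio of HDAC3i to vehicle kept its direction under all 11 alternatives in oligodendrocyte-like (1.09 to 1.30), endothelial-like (0.859 to 0.907), mural-like (0.776 to 0.892) and neutrophil-like cells (0.795 to 0.872), and under 9 of 9 in ependymal-like cells (1.07 to 1.23). In oligodendrocyte-like cells it was 1.17 at a thinned depth, 1.18 with cells weighted equally, 1.30 in the largest cluster alone and 1.09 with clusters weighted alike. It was 1.05 with each cell alike and 0.965 when thinned in microglia-like cells, 1.05 and 1.07 in Schwann-like cells, and 0.883 when thinned and 1.01 in the largest cluster in monocyte/macrophage-like cells. In border-associated macrophage-like cells 6 of 9 alternatives kept the direction. The cause of these shifts was not tested.

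Thinning left fewer measured genes, of which 7 of 12 were higher in microglia-like, 3 of 11 in monocyte/macrophage-like, 1 of 1 in border-associated macrophage-like, 2 of 4 in neutrophil-like and 6 of 7 in ependymal-like cells. The largest cluster alone gave 13 of 25 in monocyte/macrophage-like, 2 of 4 in neutrophil-like and 9 of 26 in endothelial-like cells. Counting genes with at least 1 UMI gave 13 of 26 in border-associated macrophage-like, 7 of 27 in neutrophil-like and 7 of 27 in mural-like cells. Classes from each cell's own markers gave 7 of 18 in neutrophil-like cells, and keeping doublets 7 of 18 in mural-like cells. The log2 ratio of Insig1 in border-associated macrophage-like cells was -0.075 with classes from own markers.

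The myelinating to immune ratio in the HDAC3i and vehicle libraries was 10.51 and 9.57 with classes from own markers, 10.45 and 9.61 when thinned, and 8.11 and 7.34 with a total that left out mitochondrial, ribosomal and haemoglobin UMIs. It was 9.44 with doublets kept (HDAC3i) and 9.12 with a stricter cell filter (vehicle). Against vascular cells it was 4.72 with each cell alike and 4.86 when thinned (vehicle). Over 8 alternatives the number of genes at least 2-fold above the immune mean was 22 to 23, and above the vascular mean 18 to 20. Depth limits single genes in border-associated macrophage-like and neutrophil-like cells, where 14 and 15 of the 27 genes were measured.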
